A study of Mus musculus with 3 samples.

Results

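The neuron-like cells are a small set inside the authors' cluster 2, the cluster that carries the markers of muscle progenitors in these mouse forelimb buds. They were chosen by 2 criteria: the deposited cluster number 2, and at least 3 unique molecular identifiers (UMIs, each standing for 1 captured transcript) of Stmn2 and Elavl3 in sum. The rule found 58 of the 43950 cells of the series. Of these, 56 came from the library 129_E9.5, where they were 8.66% of 647 cluster 2 cells (95% exact Clopper-Pearson interval 6.60 to 11.1) and 0.458% of all 12220 cells. The library B6_E10.5 held 2 of 1498 cluster 2 cells (0.134%, 0.0162 to 0.481). The library B6_E9.5 held 0 of 285, which allows a share of up to 1.05% by a limit of 3 counts, used here for every count of 0 (the exact interval ends at 1.29%). All 3 libraries came from forelimbs of wild-type embryos, with 1 reaction each: 129_E9.5 held the strain 129S6.sv at stage E9.5, B6_E9.5 held c57bl6.J at stage E9.5 and B6_E10.5 held c57bl6.J at stage E10.5. The sources used here do not give the number of embryos per library, and strain, dissection and reaction cannot be told apart between single libraries. The rule read 2 genes and the clusters were made from the expression of the same cells, so every value below is a description with a counting interval and carries no test.

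Newborn neurons leave the cell cycle, build axons from neuron-specific tubulin, stathmins and neurofilaments, and switch to RNA-binding proteins of the Hu (Elavl) family. Sensory neurons of the ganglia start from the proneural factors Neurog1 and Neurog2, pass through Neurod1, and keep the homeodomain factors Isl1 and Pou4f1, while motor neurons of the spinal cord combine Isl1 with Mnx1 and Lhx3. The muscle progenitors that share cluster 2 migrate from the somites into the limb bud and are known for Pax3, Lbx1 and the receptor Met.

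The 4 marker genes of the label were all higher in the neuron-like cells of 129_E9.5 than in its 591 other cluster 2 cells. The rule sum of Stmn2 and Elavl3 had a median of 20 UMIs in the neuron-like cells and a highest value of 65, against 0 UMIs in 583 of the 591 other cells. Stmn2, a stathmin that regulates microtubules in growing axons, had 0, 16.5 and 60 UMIs per neuron-like cell as lowest, median and highest values, and at most 1 in any other cluster 2 cell. Elavl3, a neuronal RNA-binding protein, had 0, 4.50 and 13 UMIs in the neuron-like cells and at most 2 in the other cells. Both genes chose the cells, so their summed levels of 2574 against 1.08 CPM (UMIs scaled to one common total) for Stmn2 and 674 against 0.864 CPM for Elavl3 only describe the rule. Tubb3, the neuron-specific beta-tubulin, was not part of the rule and had 4, 40 and 140 UMIs per neuron-like cell, against at most 4 in any other cluster 2 cell. It was detected in all 56 neuron-like cells and in 21 of the 591 others, at 6012 against 5.62 CPM (1069.97-fold, 95% interval 728 to 1641). Nefm, a neurofilament subunit, separated the cells less: it was found in 54 neuron-like cells and in 182 of the other cells, up to 39 UMIs in 1 of these, at 2497 against 148 CPM (16.9-fold, 95% interval 15.3 to 18.6). Limb mesenchyme cells of the same library (cluster 0) had 3.32 CPM of Nefm, the lowest of the 3 levels.

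**Figure D1:**
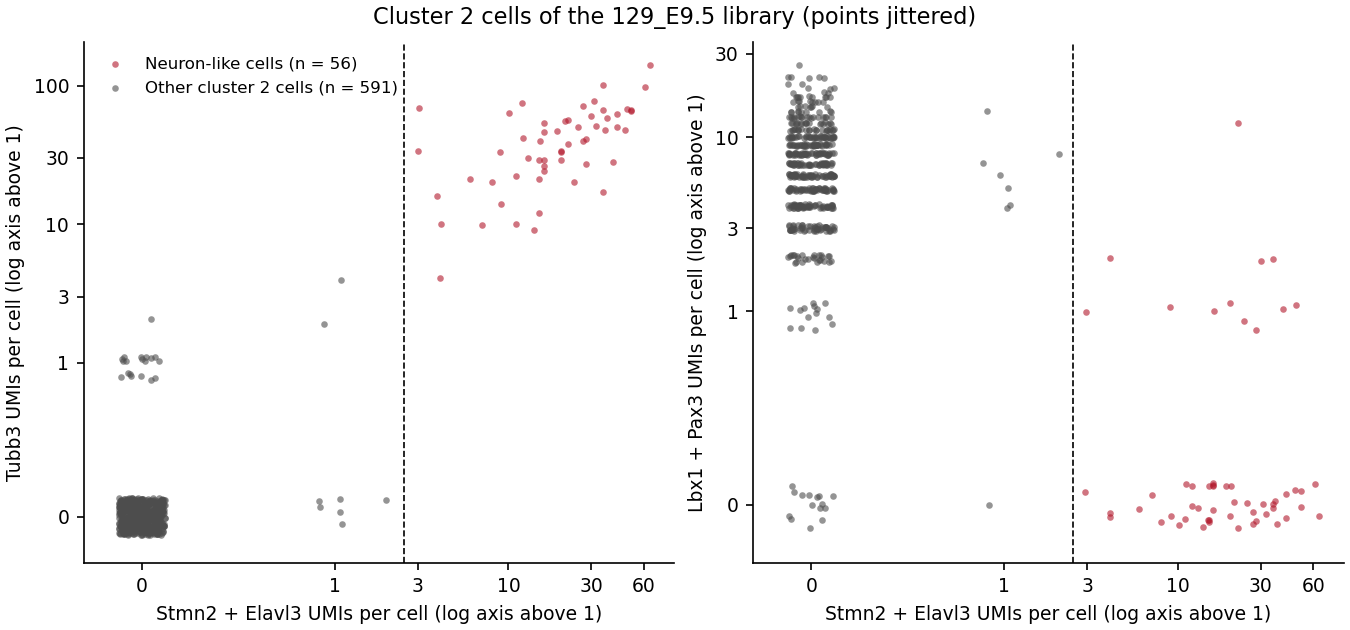
UMIs per cell in cluster 2 of 129_E9.5: the horizontal axes give Stmn2 plus Elavl3, the vertical axes Tubb3 (left) or Lbx1 plus Pax3 (right), on scales that are linear below 1 and logarithmic above; each point is a cell and the dashed line is the limit of 3 UMIs. The 56 neuron-like cells have 4 to 140 Tubb3 UMIs, against at most 4 in the 591 other cells, and most of them have 0 UMIs of Lbx1 and Pax3.

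Few cells lay near the limit. Just inside it, 2 neuron-like cells had a sum of 3 and 3 had a sum of 4. All 5 had 0 Stmn2 UMIs, between 4 and 69 of Tubb3, and between 5 and 8 of the sensory and motor factor Isl1. Just outside, 7 of the other cells had a sum of 1 and 1 had a sum of 2. Of these 8 cells, 7 carried Pax3 or Lbx1. The remaining cell had 1 Stmn2 UMI with 4 of Tubb3, 5 of Pou4f1, 4 of Neurod1 and 10 of Sst, and 0 of Pax3 and Lbx1, and stayed in the comparison group. It holds all 4 Neurod1 UMIs, all 5 Pou4f1 UMIs and all 3 Ppp1r17 UMIs of that group.

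Depth overlapped between the groups. The neuron-like cells' UMIs per cell ran from 1692 to 15151 with a median of 6671, against 647 to 22173 with a median of 7612 in the other cluster 2 cells. The sums compared below hold 400554 UMIs from the neuron-like cells and 4627523 from the other cells, so a gene with 0 UMIs may reach 7.49 CPM in the neuron-like cells and 0.648 CPM in the others (limit of 3 UMIs per group). Median mitochondrial shares were 2.18% in the neuron-like cells and 2.90% in the other cells. No doublet caller was run. None of the neuron-like cells reached 16000 UMIs, and 7 of the other cells did. Barcodes of 2 neuron-like cells also occur in another library, among 1728 such cells in the series. Neuronal transcripts were also found at a low level outside these cells in 129_E9.5, and the part of free RNA in that was not tested. The peptide gene Sst, with 809 UMIs in the neuron-like cells, had 72 UMIs in 41 of the 12164 remaining cells of that library and 0 UMIs in the 31730 cells of both B6 libraries together. The 11 genes of the erythroid list summed to 377 CPM in neuron-like cells, 567 CPM in other cluster 2 cells (ratio 0.665, 0.561 to 0.784) and 473 CPM in limb mesenchyme. The highest of the other cluster 2 cells held 589 of their 2623 UMIs of this list, where their median was 3, so the ratio leans on that cell. After each cell was thinned to 2000 UMIs, 0 UMIs of the erythroid list were left in 41.8% of neuron-like cells, 39.9% of other cluster 2 cells and 40.5% of limb mesenchyme cells.

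Across the transcriptome, 503 of 3623 genes were at least 2-fold higher in the neuron-like cells (13.9%) and 340 were at least 2-fold lower (9.38%), among genes whose higher sum reached 50 CPM and 20 UMIs, with a 95% interval of the ratio that excludes 1 as the second condition. The median log2 ratio of all 3623 genes was −0.06. These shares and this median are the level to set beside each list count and list median below. The floor was read in the group with the higher level. A gene below 50 CPM in 1 group could thus enter only by being higher in the other, which fixed its direction. The same holds for the genes in each list count below. Of the higher genes, 20 had 0 UMIs in the other cells, and of the lower genes 10 had 0 UMIs in the neuron-like cells. Among the 15 largest ratios, in falling order, were those of Stmn2, Ina, Rgs4, Stmn3, Ppp1r17, Neurog1, Tubb3, Stmn4, Srrm4, Isl1, Neurod1, Btbd17, Elavl3 and Sst. The 15 smallest belonged to Tcf15, Mmp2, Fbn2, Hbb-bs, Hoxa11, Hoxa10, Dnmt3b, Pdgfc, Cmtm7, Hoxb2, Lbx1, Elk3, Sp5, Ets1 and Id2. Most of the largest ratios rest on 1 to 5 UMIs in the other cells, so their size is loosely bounded: Ina had 196 UMIs in neuron-like cells and 1 in the others (2264-fold, 402 to 89888). They also depend on which cells count as neuron-like. At a limit of 5 UMIs, which moves 5 neuron-like cells into the comparison group, the log2 ratio was 7.52 for Tubb3 (10.06 as reported), 6.15 for Neurog1 (10.13), 6.80 for Isl1 (9.91), 6.47 for Neurod1 (9.66), 6.87 for Sst (9.61), 7.51 for Ppp1r17 (10.67) and 7.91 for Ina (11.14), each below the counting interval of that gene's reported ratio.

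**Figure D2:**
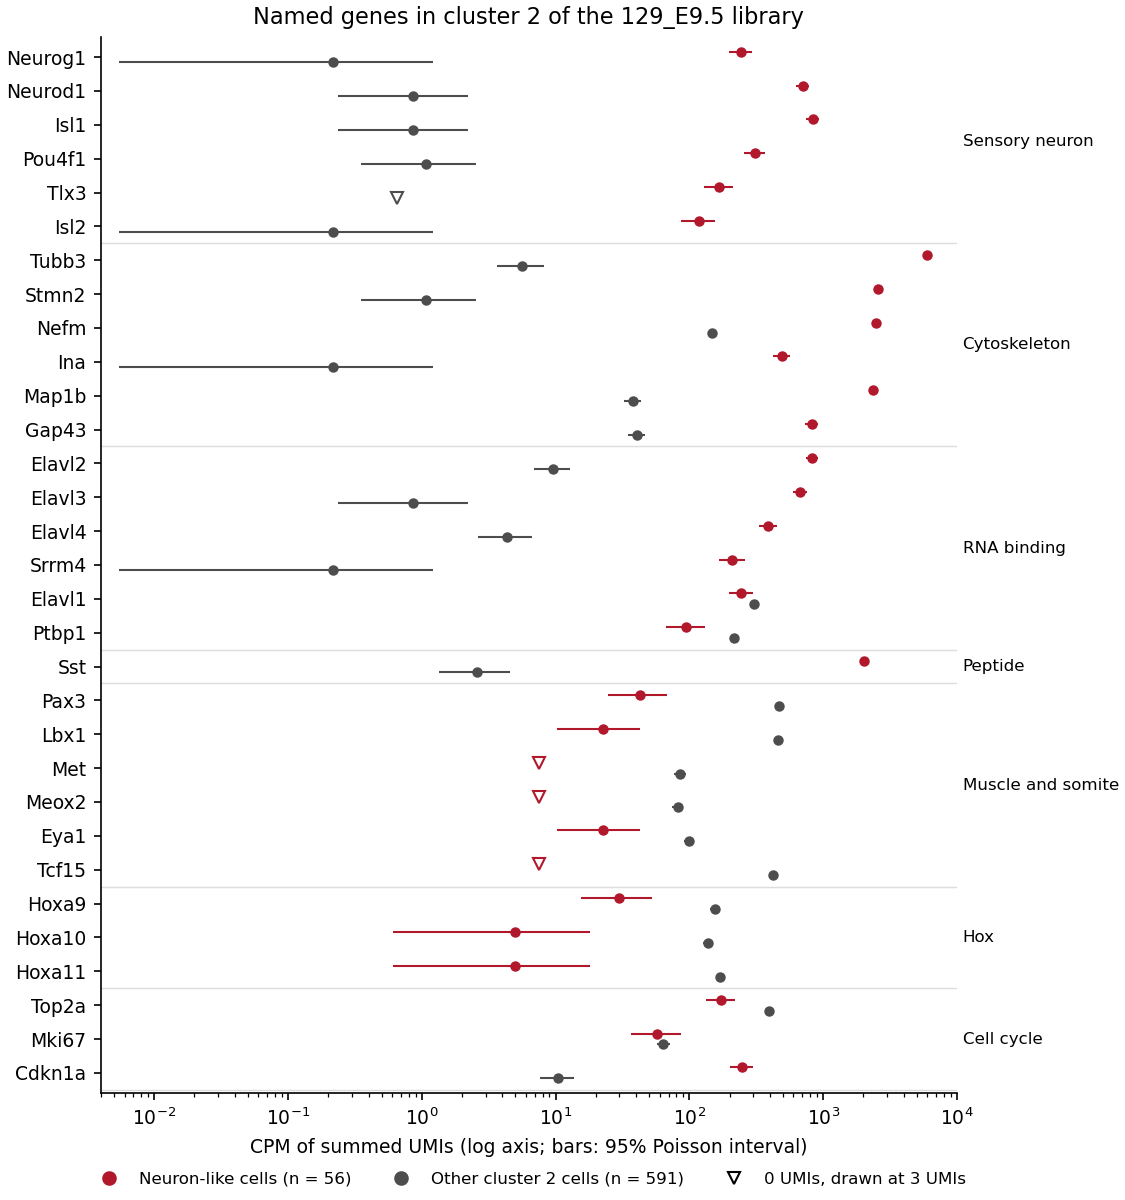
CPM of summed UMIs for named genes in 129_E9.5, on a logarithmic axis, with the 56 neuron-like cells in red and the 591 other cluster 2 cells in grey; bars are 95% exact Poisson intervals and open triangles mark 0 UMIs, drawn at the limit of 3 UMIs. Neuronal genes lie right in red, from 6012 CPM for Tubb3 downwards, while Pax3, Lbx1, Tcf15 and the Hox genes lie right in grey.

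Genes of the axonal cytoskeleton were nearly all higher. Of its 24 measured genes 21 passed the floor on low values, and 20 of these were higher and 0 lower in the neuron-like cells, with a list median log2 ratio of 4.15 against −0.06 over all genes. The exception was Marcksl1, at 1770.05 and 1963 CPM. Stmn2, which the rule read, is counted among the 20, and its place there only describes the rule. Genes shared with dividing cells differed by less than the neuron-specific ones. Stmn1, the stathmin of proliferating cells, was at 3593 CPM in neuron-like cells and 528 CPM in the others (6.81-fold, 6.37 to 7.27), and Tuba1a, an alpha-tubulin, at 5689.6 against 751 CPM (7.58-fold, 7.19 to 7.99). Map1b, a microtubule-associated protein of axons, reached 2359 against 37.6 CPM (62.7-fold, 53.3 to 74.2), with 1, 15.5 and 69 UMIs per neuron-like cell as lowest, median and highest. Nefl, the light neurofilament, was at 1685 against 73.7 CPM (22.9-fold, 20.0 to 26.1), and Gap43, a growth cone protein, at 819 against 40.6 CPM (20.2-fold, 16.8 to 24.2). Tubb2a and Tubb2b of this list are close copies of each other, so the split of reads between them is uncertain.

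Neuronal RNA-binding proteins were next, with 14 measured, 11 above the floor, 8 higher and 1 lower (median log2 ratio 6.12). Elavl3, which the rule read, is counted among the 8, and its place there only describes the rule. Within the Elavl family the neuronal members Elavl2, Elavl3 and Elavl4 were higher, and Elavl1, which most cells express, was not, at 245 CPM in neuron-like cells and 305 CPM in the others. Elavl2 stood at 826 against 9.51 CPM (86.9-fold, 63.3 to 122) and was present in all 56 neuron-like cells and in 41 of the others. The lower gene was Ptbp1, which represses neuronal splicing in non-neuronal cells, at 94.9 against 216 CPM (2.27-fold lower, 1.64 to 3.23). Its neuronal relative Ptbp2 was at 89.9 against 53.4 CPM and did not reach the 2-fold limit. Srrm4, a splicing activator of neuronal microexons, had 84 UMIs in the neuron-like cells and 1 in the others (970.4-fold, 169 to 38781). Rbfox3, the antigen NeuN of postmitotic neurons, had 30 UMIs in 22 neuron-like cells against 5 UMIs in the others (69.3-fold, 26.6 to 229).

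The Neurogenin and Neurod factors found in these cells are known to bind E-boxes. The upstream sequence of the named higher genes was searched for the E-box forms CAGNTG and CANCTG, which are each other's reverse complement, with a site that fits both counted once. RefSeq promoter entries (build GRCm38.p6) were found for 11 of the 15 named higher genes, and 6 of these (54.5%) held a match in the 250 bases before the transcription start, against 44.8% of 32851 promoters in all, 40.6% of 534 promoters of genes called higher and 32.1% of 3652 promoters of all genes above the floor. Elavl3, at chr9:22052024-22052273 (minus strand), held 2 matches, Isl1, at chr13:116309689-116309938 (minus strand), held 1, and Tubb3, at chr8:123411303-123411552 (plus strand), held 0, which says only that these letters are not in that window. These 3 are shown 5′ to 3′ toward the transcription start, with each match in capitals, as the rule gene, the sensory and motor factor and the neuronal gene with most UMIs.
Elavl3: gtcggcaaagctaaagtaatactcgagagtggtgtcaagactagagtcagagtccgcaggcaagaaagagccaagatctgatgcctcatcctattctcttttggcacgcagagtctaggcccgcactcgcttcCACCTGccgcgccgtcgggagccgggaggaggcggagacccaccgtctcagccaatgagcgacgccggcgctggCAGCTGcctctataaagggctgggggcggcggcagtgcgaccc
Isl1: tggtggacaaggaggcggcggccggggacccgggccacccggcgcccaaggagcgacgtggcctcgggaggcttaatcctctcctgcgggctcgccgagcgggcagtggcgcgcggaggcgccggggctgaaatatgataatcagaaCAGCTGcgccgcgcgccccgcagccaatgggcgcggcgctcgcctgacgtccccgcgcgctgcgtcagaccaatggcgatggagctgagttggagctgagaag
Tubb3: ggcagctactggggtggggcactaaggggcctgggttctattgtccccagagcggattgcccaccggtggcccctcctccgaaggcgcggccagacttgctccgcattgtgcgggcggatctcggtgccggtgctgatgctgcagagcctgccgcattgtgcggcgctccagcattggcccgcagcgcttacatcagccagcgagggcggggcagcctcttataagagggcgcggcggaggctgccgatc

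Synaptic and axon guidance transcripts were present at lower levels. Of 23 synapse and excitability genes 8 passed the floor, and all 8 were higher (median log2 ratio 5.53). The floor fixed that direction for genes below 50 CPM in the other cells. Without a floor, the 23 genes summed to 1069 against 89.9 CPM (11.9-fold, 10.4 to 13.6). Syt11, a synaptotagmin, was at 192 against 8.64 CPM, Vamp2, a vesicle fusion protein, at a ratio of 4.46, and Snap25, its partner on the plasma membrane, had 32 UMIs against 2 (185-fold, 47.2 to 1592). The markers of inhibitory transmission Gad1, Gad2 and Slc32a1 were all at 0 UMIs in the neuron-like cells. Of 19 guidance and adhesion genes 4 passed the floor and all 4 were higher: Gap43, the semaphorin receptor Nrp2 (145 against 24.0 CPM), the adhesion molecule Ncam1 (129.8 against 23.8 CPM) and the Slit receptor Robo2 (64.9 against 5.19 CPM). All 4 passed the floor only through the neuron-like cells, which fixed their direction. The list median log2 ratio was 3.12, and 2.52 with no CPM floor. Summed without a floor, the 19 genes were at 1423 CPM in the neuron-like cells and 203 CPM in the others. The guidance receptors Robo1, Unc5c, Epha4 and Nrp1 were below the floor, with 6 to 14 UMIs in the neuron-like cells.

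Most transcription factors of the neuronal lineage were higher in the neuron-like cells, though as a sum the list was also found in 590 of the 591 other cells (6221 against 2047 CPM). Of 22 proneural and neuronal factors 17 passed the floor, 14 of them higher and 1 lower (median log2 ratio 6.44). Neurog1, which starts sensory neurogenesis, had 97 UMIs in 33 neuron-like cells and 1 UMI in the others (1121-fold, 196 to 44713). Neurod1, which acts downstream of it, was found in 52 neuron-like cells with 0, 5 and 11 UMIs as lowest, median and highest, at 702 against 0.864 CPM. Nhlh1, a related factor of newborn neurons, had 112 UMIs in 45 neuron-like cells and 0 in the others, 431-fold higher with the 0 set at 3 UMIs. Onecut2 had 157 UMIs against 3 (605-fold, 203 to 2963), and Ebf1 was at 809 against 62.9 CPM (12.9-fold, 10.9 to 15.1). Sox4 and Sox11, which act in both newborn neurons and limb tissue, did not reach 2-fold: Sox11 was at 1421 and 1081 CPM. Pou3f2 and Myt1l were at 0 UMIs in the neuron-like cells, and Tcf12, a broadly expressed partner of proneural factors, was lower (2.25-fold lower, 1.65 to 3.14).

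**Figure D3:**
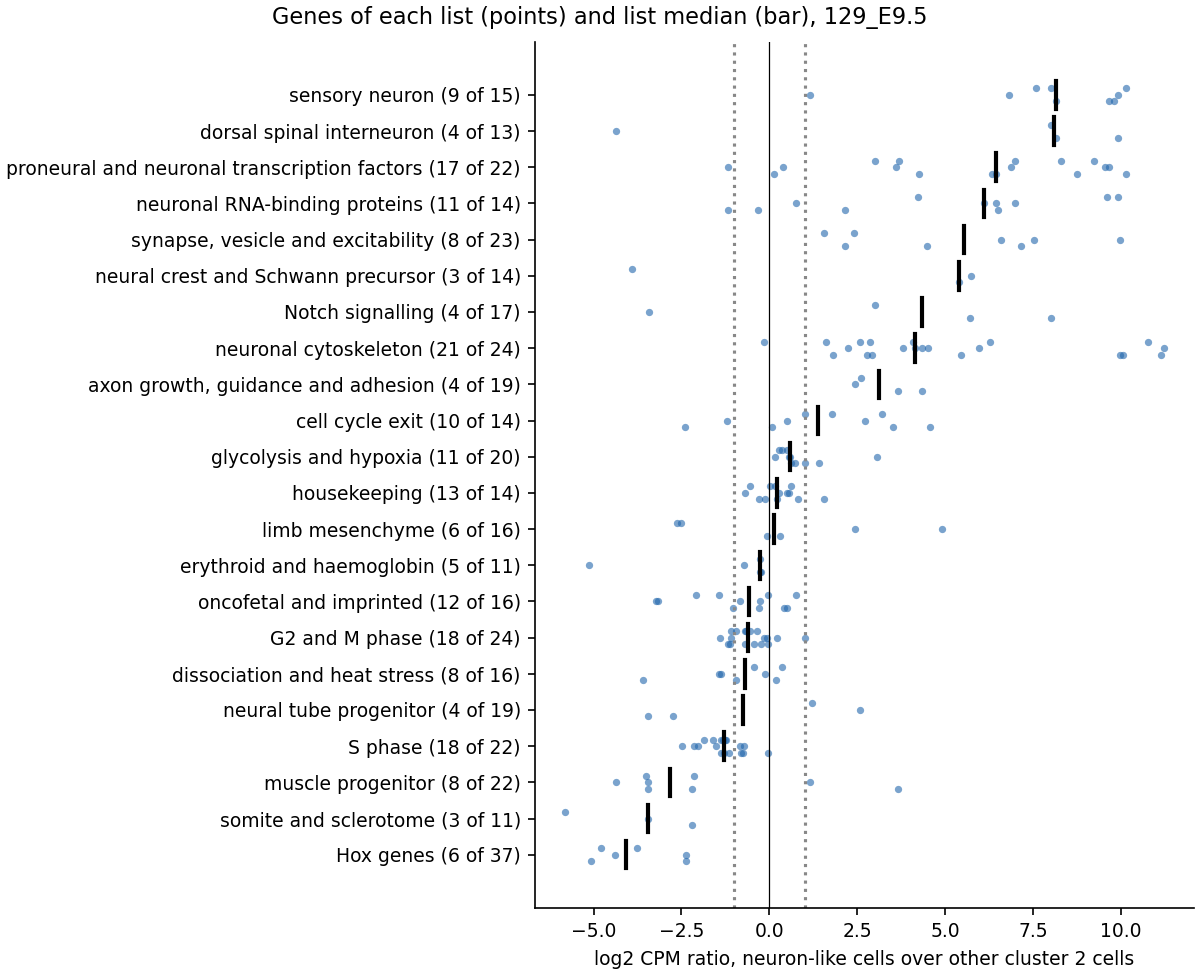
The log2 CPM ratio of neuron-like cells over other cluster 2 cells of 129_E9.5 for each gene above the floor (points) with the list median (bar); numbers in brackets give the genes above the floor and those measured, dotted lines mark 2-fold, and a group with 0 UMIs is set at 3 UMIs. The neuronal lists shown lie right of 0, except neural tube progenitors. Among these lists, each with at least 3 genes above the floor, medians reach 8.15 for sensory neuron genes, and the muscle, somite and Hox lists lie left, with -4.08 for Hox genes.

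Among subtype markers, those of sensory neurons were found in most of the cells. Of 15 measured sensory neuron genes 9 passed the floor and were higher (median log2 ratio 8.15). The floor fixed that direction for genes below 50 CPM in the other cells. Without a floor, the 15 genes summed to 3320 against 152 CPM (21.8-fold, 19.9 to 23.9). Isl1 was found in 53 neuron-like cells with 0, 5 and 19 UMIs per cell, at 834 against 0.864 CPM (965-fold, 373 to 3561). Pou4f1 (Brn3a) was found in 51 cells with 0, 2 and 6 UMIs per cell, at 307 against 1.08 CPM (284-fold, 119 to 891). These genes were found in the same cells: Isl1 and Pou4f1 together in 49 of the 56, and Isl1 and Neurod1 together in 50. Tlx3 had 67 UMIs in 35 cells and Prrxl1 (Drg11) 50 UMIs in 25 cells, against 0 and 3 UMIs in the other cells. Ntrk3, the receptor of neurotrophin-3, was less frequent, with 29 UMIs in 19 cells. Runx1 and Runx3, which mark later sensory subtypes, were at 0 UMIs in the neuron-like cells.

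After thinning of every cell to 2000 UMIs, which left 55 neuron-like cells, 581 other cluster 2 cells and 8967 limb mesenchyme cells (median depth before thinning 7463 UMIs), Isl1 was found in 76.4% of neuron-like cells, 0% of other cluster 2 cells and 0.0892% of limb mesenchyme cells, against 94.6% of neuron-like cells and 0.677% of other cluster 2 cells at full depth. Tubb3 was found in 98.2% of neuron-like cells, 1.20% of other cluster 2 cells and 0.736% of limb mesenchyme cells after thinning, against 100% of neuron-like cells and 3.55% of other cluster 2 cells at full depth. The 0 of 581 other cluster 2 cells with Isl1 allow a share of up to 0.516% by the limit of 3 counts. Limb mesenchyme was taken to lack these genes, so its shares serve as a background level. That cluster held 4 cells with at least 5 Tubb3 UMIs, so its shares may include neuronal cells.

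Several further genes had high levels in these cells. Tlx2 among them was chosen after its values were seen. Sst, which encodes the peptide somatostatin, had 809 UMIs in 49 neuron-like cells with 0, 8.50 and 73 per cell, at 2019.7 against 2.59 CPM (779-fold, 443 to 1514), and 10 of the 12 UMIs of the comparison group were in the single cell described at the limit. Ppp1r17, a phosphatase inhibitor, was present in all 56 neuron-like cells with 2, 7 and 16 UMIs per cell and had 3 UMIs in the others (1629-fold, 554 to 7930.5). Rgs4, a regulator of G protein signalling, had 188 UMIs in 46 cells against 1 UMI (2172-fold, 385 to 86237). Btbd17 had 139 UMIs against 2 (803-fold, 218 to 6696). The homeobox gene Tlx2 had 167 UMIs in 51 neuron-like cells and 4 UMIs in the others (482-fold, 185 to 1791). Of the 7 genes Isl1, Pou4f1, Neurod1, Tlx2, Ppp1r17, Sst and Elavl2, picked after their values were seen, 37 neuron-like cells held all 7 and every one held at least 4. Among the other cells 544 of 591 held none, 46 held 1 and 1 held 7.

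**Figure D4:**
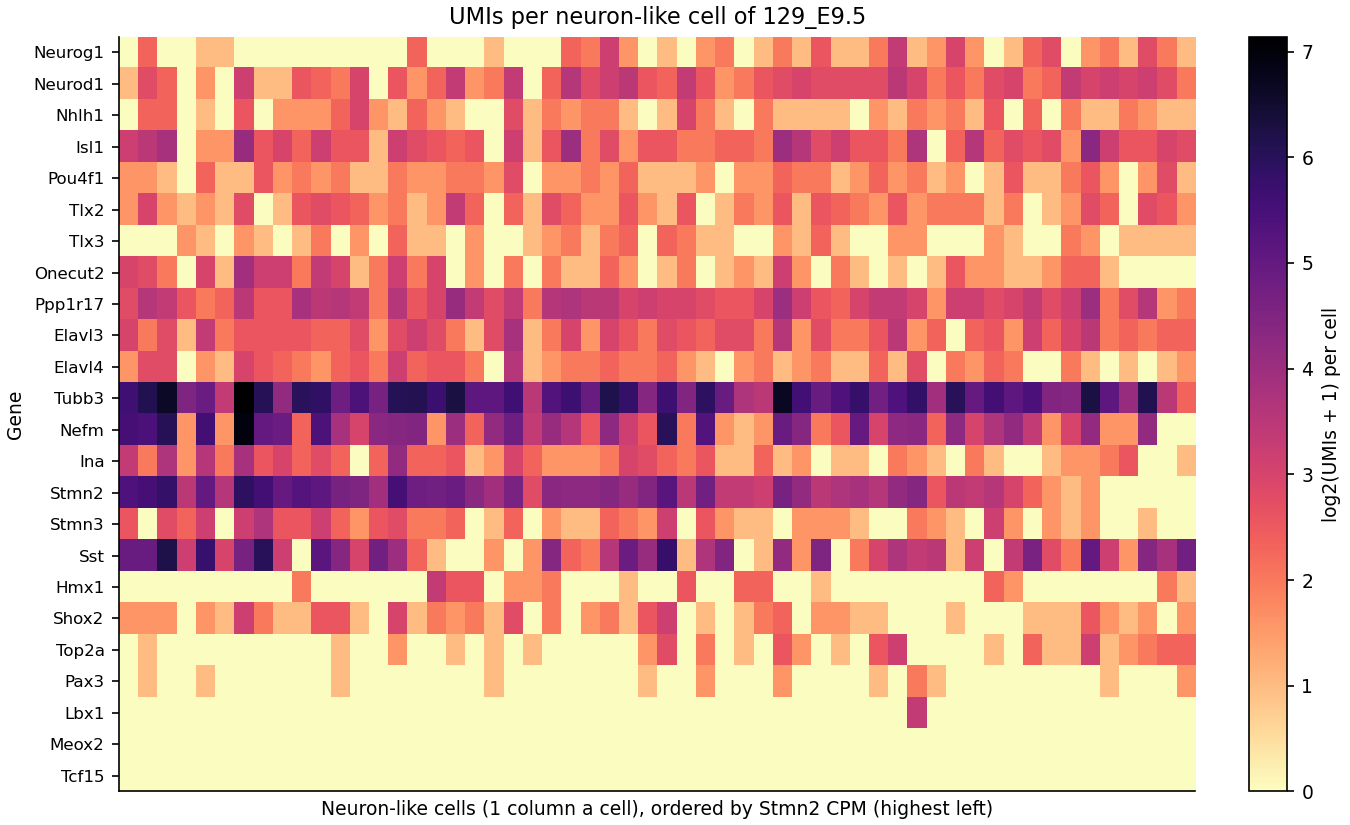
UMIs of 24 genes in each of the 56 neuron-like cells of 129_E9.5 (columns, ordered by Stmn2 CPM with the highest at the left), coloured by log2(UMIs + 1). Tubb3, Isl1, Neurod1, Ppp1r17 and Elavl3 run through nearly all cells, Neurog1 and Hmx1 through subsets, and Meox2 and Tcf15 are at 0 in all 56, with Lbx1 in 1.

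Markers of other neuron types were mostly at 0. In the motor neuron list 9 of 13 genes had a row, and Isl1 and Isl2, which sensory neurons also express, were the 2 above the floor, with log2 ratios of 9.91 for Isl1 and 9.08 for Isl2. Isl2 had 47 UMIs in 22 neuron-like cells against 1 UMI (543-fold, 92.8 to 21897). Mnx1, Lhx3, Slc5a7 and Tbx20 were at 0 UMIs in the neuron-like cells, and Mnx1 and Lhx3 also in the other cluster 2 cells. Of 13 measured dorsal spinal interneuron genes 4 passed the floor, and the 3 higher ones were again Pou4f1, Tlx3 and Isl1 (median log2 ratio of the 4 8.08), while Lhx1, Pax2, Pax8, Lmx1b, Phox2a, Foxd3 and Gbx1 were at 0. Of 14 ventral interneuron genes none passed the floor and 13 were at 0 in the neuron-like cells, with 4 UMIs of Foxp2 in 3 cells as the exception.

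Neural progenitor and neural crest markers were sparse. Sox2, Sox3, Sox21, Pax6, Pax7, Hes5, Nkx6-1, Dbx2 and Zic1 were at 0 UMIs in the neuron-like cells, 9 of 19 measured neural tube progenitor genes, and Sox2, Sox3 and Pax6 together had 1 UMI in the 591 other cells. Of the 4 genes of that list above the floor, Vim, the intermediate filament of progenitors and mesenchyme, was higher at 841 against 142 CPM (5.92-fold, 5.17 to 6.76), and the cadherin Cdh2 at 84.9 against 36.3 CPM. Pax3 and the growth factor Ptn were lower, Ptn at 132 against 881 CPM (6.66-fold lower, 5.08 to 8.90). In the Notch pathway, through which newborn neurons hold back their neighbours, 4 of 17 measured genes passed the floor, 3 of them higher and 1 lower. Hes6, which opposes Hes1, was at 457 against 56.8 CPM (8.04-fold, 6.62 to 9.74), and the ligand relative Dll3 had 27 UMIs against 6 (52.0-fold, 21.0 to 154). The Notch-modifying enzyme Mfng had 67 UMIs against 0, 258-fold higher with the 0 set at 3 UMIs. Hes1, a target that represses neurogenesis, had 3 UMIs in neuron-like cells and 372 in the others, a ratio of 0.0932 (0.0191 to 0.274). Of 14 measured neural crest and Schwann precursor genes 3 passed the floor: Tfap2b (79.9 against 1.51 CPM) and Tfap2a (72.4 against 1.73 CPM), factors of the crest and of sensory progenitors, were higher, and Ets1 was lower, with 2 UMIs against 347. The defining genes of migrating crest and glia Sox10, Foxd3, Erbb3 and Sox9 were at 0 UMIs in the neuron-like cells.

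The muscle progenitor programme was low in the neuron-like cells. Of 22 measured genes 8 passed the floor, 6 lower and 2 higher (median log2 ratio -2.82), where 9.38% of all genes above the floor were lower and 13.9% higher. All 6 lower genes passed the floor only through the other cells, which fixed their direction. With no CPM floor the list median was -2.17. Without a floor, the 22 genes summed to 484 against 1464.5 CPM (3.02-fold lower, 2.62 to 3.51). Pax3 had 17 UMIs in 12 neuron-like cells, at most 3 in a cell, and was found in 545 of the 591 other cells with a median of 3 and a highest value of 15 (42.4 against 464 CPM, 10.9-fold lower, 6.82 to 18.8). Lbx1, a homeobox factor of migrating limb muscle progenitors, had 9 UMIs, all in 1 neuron-like cell of 12464 UMIs, and 2122 UMIs in 545 of the other cells (22.5 against 459 CPM, 20.4-fold lower, 10.7 to 44.7). Met, the receptor that releases these progenitors from the somite, had 0 UMIs against 395, and Meox2 had 0 against 378. With the 0 set at 3 UMIs, Met was 11.4-fold lower (95% interval from 9.23) and Meox2 10.9-fold lower (from 8.83). Eya1, a transcriptional cofactor, was at 22.5 against 99.6 CPM (4.43-fold lower, 2.32 to 9.76). Of the 2 higher genes, Msc, a repressor of muscle differentiation, was at 94.9 against 7.56 CPM (12.5-fold, 7.71 to 20.4). None of the 16 muscle differentiation genes passed the floor. Tcf15 (paraxis), a factor of somites and early myogenic cells, had the smallest ratio of all. It had 0 UMIs in the neuron-like cells and 1937 in 497 of the 591 others, 55.9-fold lower with the 0 set at 3 UMIs (95% interval from 45.4). With Tcf15, Meox1 and Meox2, all 3 somite genes above the floor were lower.

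Other tissue lists gave smaller or mixed differences. In the limb mesenchyme list 6 of 16 genes passed the floor, 2 higher and 2 lower (median log2 ratio 0.12, which turned negative under 4 alternatives). Shox2, a homeobox gene of proximal limb mesenchyme and of sensory neurons, was at 272 CPM in neuron-like cells, 9.08 CPM in other cluster 2 cells (95% interval of the ratio 20.8 to 43.9) and 117 CPM in limb mesenchyme. Tbx3 was also higher (72.4 against 13.4 CPM), and Msx1 and Gli3 were lower. Prrx1, which defines limb mesenchyme and was below the floor, was at 27.5 CPM in neuron-like cells and 33.7 CPM in other cluster 2 cells, against 396 CPM in mesenchyme. Among 12 endothelial genes Kdr and Ramp2 passed the floor and both were lower (all 7 Kdr UMIs lay in 1 neuron-like cell), and Cdh5, Emcn, Cldn5, Tie1 and Tek were at 0 in the neuron-like cells. Kdr and Ramp2 passed the floor only through the other cells, which fixed their direction. The 12 macrophage and megakaryocyte genes summed to 0 UMIs, and none of 14 ectoderm genes passed the floor. Of 5 haemoglobin-list genes above the floor Hbb-bs was lower, with 1 UMI in the neuron-like cells against 402 UMIs in 13 of the others, 390 of them in 1 cell. Haemoglobin genes with close copies may share reads, so their split is uncertain.

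Hox genes, transcription factors expressed by position along the body axis and along the limb, were low in the neuron-like cells. The 6 of 37 measured Hox genes above the floor were lower (Hoxa7, Hoxa9, Hoxa10, Hoxa11, Hoxb2 and Hoxb4), with a median log2 ratio of -4.08. All 6 passed the floor only through the other cells, which fixed their direction. With no CPM floor the list median was -2.56. Summed over the 37 genes, the neuron-like cells had 56 Hox UMIs, or 139.8 CPM, against 1017 CPM in the other cluster 2 cells (7.27-fold lower, 5.59 to 9.64) and 1609 CPM in limb mesenchyme. No Hox UMI was found in 42 of the 56 cells. Of the 56 UMIs, 22 came from the deepest neuron-like cell (15151 UMIs) and 9 from the next. Hoxa9 had 12 UMIs in 5 neuron-like cells against 716 in 317 others (5.16-fold lower, 2.94 to 10.0), and Hoxa11 had 2 UMIs against 785 (34.0-fold lower, 9.37 to 281). The trunk genes near the 3′ ends of the clusters were low too: Hoxb4 had 2 UMIs against 314 (13.6-fold lower, 3.73 to 113), and Hoxa5 had 3 against 210, below the floor. After thinning to 2000 UMIs, 81.8% of neuron-like cells had 0 Hox UMIs (95% interval 69.1 to 90.9), against 17.6% of other cluster 2 cells (14.5 to 20.9) and 5.38% of limb mesenchyme cells (4.92 to 5.86). Without the 4 neuron-like cells that had any Lbx1 UMI or at least 3 Hox UMIs, a set left out after the data were seen, the counts over all genes were 490 higher and 376 lower.

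**Figure D5:**
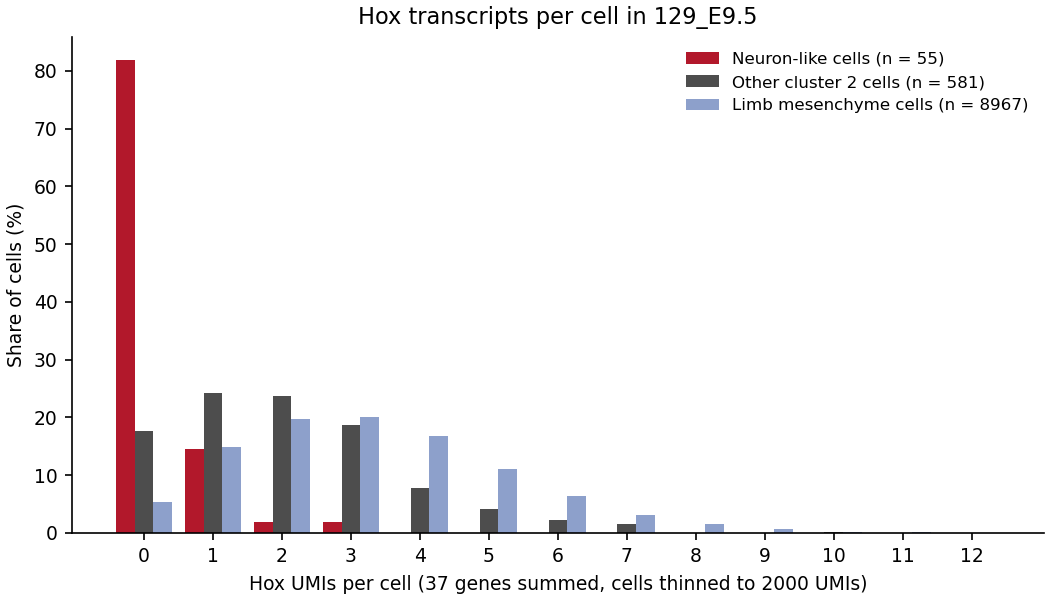
Share of cells (%) by the number of Hox UMIs per cell, summed over 37 genes after thinning each cell to 2000 UMIs, in 129_E9.5. Neuron-like cells (red, n = 55) pile up at 0 with 81.8%, while other cluster 2 cells (grey, n = 581) have a median of 2 and limb mesenchyme cells (blue, n = 8967) a median of 3.

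Cell cycle genes were lower on the whole, and unevenly so. For the counts below, the shares over all 3623 genes above the floor were 13.9% higher and 9.38% lower. Of 18 S phase genes above the floor 13 were lower and 0 higher (median log2 ratio -1.30), with Ccne1 at 35.0 against 196 CPM (5.62-fold lower, 3.33 to 10.3) and Rrm2 at 115 against 420.1 CPM (3.66-fold lower, 2.73 to 5.01). Of 18 G2 and M phase genes 5 were lower and 1 (Nusap1) higher (median log2 ratio -0.60): Top2a was lower at 172 against 393 CPM (2.28-fold lower, 1.79 to 2.94), and Mki67 was at 57.4 and 64.0 CPM. After thinning, 36.4% of neuron-like cells had 0 UMIs of the 24 G2 and M phase genes, against 0.516% of other cluster 2 cells, while the highest neuron-like cell had 21. The list of cell cycle exit genes also holds D-type cyclins, which are not exit genes. Of its 10 genes above the floor 6 were higher, the cyclin Ccnd2 among them. The 2 lower ones were both cyclins, Ccnd1 and Ccnd3. Cdkn1a (p21), an inhibitor of cyclin-dependent kinases, was at 247 against 10.4 CPM (23.8-fold, 16.7 to 34.4), Gadd45a at 132 against 14.3 CPM (9.28-fold, 6.34 to 13.5), and the cyclin Ccnd3 was lower at 57.4 against 304 CPM (5.30-fold lower, 3.52 to 8.39). Ccnd2 was at 1016 against 501 CPM (2.03-fold, 1.82 to 2.26), with 0, 2 and 71 UMIs per neuron-like cell as lowest, median and highest.

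The cycling transcripts lay mainly in the cells with Neurog1. Neurog1 was detected in 33 neuron-like cells and not in 23, a split made after the data were seen, and both sets had like depth (median 6677 UMIs in the Neurog1-positive and 6665 UMIs in the Neurog1-negative cells). G2 and M phase genes summed to 3717 CPM in the Neurog1-positive and 393 CPM in the Neurog1-negative cells (ratio 9.47, 7.29 to 12.5). At least 20 such UMIs were counted in 14 Neurog1-positive and 0 Neurog1-negative cells, against 335 of the 591 other cluster 2 cells. S phase genes summed to 1429 CPM in the Neurog1-positive and 628 CPM in the Neurog1-negative cells (ratio 2.27, 1.81 to 2.88). Ccnd2 was at 1558 CPM in the Neurog1-positive and 137 CPM in the Neurog1-negative cells (ratio 11.3, 7.31 to 18.5). Genes of axon growth that the rule did not read ran the other way. Stmn4 was at 48.4 CPM in the Neurog1-positive and 491 CPM in the Neurog1-negative cells (ratio 0.0987, 0.0488 to 0.183), Nefl at 1074 CPM in the Neurog1-positive and 2677 CPM in the Neurog1-negative cells (ratio 0.401, 0.342 to 0.469), and Gap43 at 597 CPM in the Neurog1-positive and 1178 CPM in the Neurog1-negative cells (ratio 0.507, 0.405 to 0.634). Isl2 was at 48.4 CPM in the Neurog1-positive and 229 CPM in the Neurog1-negative cells (ratio 0.211, 0.0999 to 0.417). The identity factors Isl1 (ratio 1.02) and Pou4f1 (ratio 0.963) were near even. Cells of 1 library are not replicates, so these ratios carry counting intervals only.

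A second subset carried Hmx1, a homeobox gene of sensory ganglia, which was detected in 16 of the 56 cells, 6 of them with Neurog1. It was also picked after the values were seen. Prrxl1 had 2 UMIs in the 16 Hmx1-positive cells and 48 in the 40 Hmx1-negative cells (ratio 0.128, 0.0151 to 0.488). Sst was at 1250 CPM in the Hmx1-positive and 2270.4 CPM in the Hmx1-negative cells (ratio 0.551, 0.451 to 0.668) and was found in 10 of the 16 and 39 of the 40. Nefm was at 1250 CPM in the Hmx1-positive and 2902 CPM in the Hmx1-negative cells (ratio 0.431, 0.354 to 0.521). Tlx2 was higher in the Hmx1-positive cells, at 630.1 CPM in the Hmx1-positive and 348 CPM in the Hmx1-negative cells (ratio 1.81, 1.30 to 2.51). Pou4f1 was higher in the Hmx1-positive cells (ratio 1.71, lower end of the interval 1.16), and the interval of Isl1 included 1 (ratio 0.859, 0.653 to 1.12). G2 and M phase genes summed to 1463 CPM in the Hmx1-positive and 2770.1 CPM in the Hmx1-negative cells (ratio 0.528, 0.440 to 0.631), and Ccnd2 was at 407 CPM in the Hmx1-positive and 1215 CPM in the Hmx1-negative cells (ratio 0.335, 0.235 to 0.465). Median depth was 6587 UMIs in the Hmx1-positive and 6901 UMIs in the Hmx1-negative cells.

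The 2 neuron-like cells of B6_E10.5 differed from those of 129_E9.5. One had 10 UMIs of Stmn2, 26 of Tubb3, 10 of Nefm, 13 of Isl1 and 2 of Phox2a, a factor of autonomic neurons, and 0 of Pou4f1, Elavl3 and Sst. The other had 8 UMIs of Stmn2 with 3 of Pax3, 3 of Lbx1 and 0 of Tubb3, so the neuronal label rests on Stmn2 alone there. Neurod1, Ppp1r17, Tlx2 and Sst had 0 UMIs in all 31730 cells of the B6 libraries, which allows up to 0.00945% of cells with a UMI. Within 129_E9.5, cells outside cluster 2 also passed the limit of 3 UMIs of Stmn2 and Elavl3. Cluster 0 (limb mesenchyme) held 4, of which 3 had Tubb3, and cluster 1 (ectoderm) held 2, both with Tubb3. One of the cells of cluster 1 had 55 Tubb3, 8 Isl1 and 3 Pou4f1 UMIs.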

How the data were processed

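The values were raw UMI counts per gene and cell, which the authors deposited as 1 matrix of 15122 genes and 43950 cells with a cluster number for each cell. Cell Ranger 3 and the build mm10 are named in the submitters' processing notes, with cell filters and clustering method not given in the sources used here. Per the labels' protocols, forelimb cells dissociated with trypsin were run with 10x Genomics 3′ chemistry. Libraries held 93029510 UMIs in 129_E9.5, 124388358 in B6_E9.5 and 119942504 in B6_E10.5. Cells were assigned to libraries by strain and stage.

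UMIs were summed over the neuron-like and over the other cluster 2 cells of 129_E9.5, and CPM, ratios and shares were computed with Python 3.11.15, numpy 2.4.6, scipy 1.17.1 and pandas 2.3.3. Intervals are 95% exact Poisson (CPM), conditional binomial (ratios) and Clopper-Pearson (shares), and cover counting error only. A count of 0 was set at 3 UMIs over the group in ratios and list medians. The size rule was a CPM ratio of at least 2 with an interval excluding 1, at 50 CPM and 20 UMIs or more in the higher sum. Named genes were the 15 largest and 15 smallest ratios, without ribosomal, mitochondrial and uncharacterised genes (5 higher and 5 lower were not spelled out), the 8 genes at most with the highest UMI sums in each of 30 gene lists, and a set of fixed names; other genes named were chosen after their values were seen. The members and lists were chosen with earlier results of these data known. For thinning, each cell was drawn down to 2000 UMIs and shallower cells were left out. TMM factors came from edgeR 4.0.16 in R 4.3.3, as an alternative scaling only. The calculation was tested on simulated data. No doublet caller was run, and no further cell filter was applied. Promoter sequences came from RefSeq tables. Some genes of the lists and of the named-genes rule are counted but not reported here.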

Additional observations from a re-analysis of the deposited data

How the results depend on the processing

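The count of higher genes (503) ran from 490 to 519 and that of lower genes (340) from 330 to 386 under a first set of alternatives. These were member limits of 2 and 5 UMIs, a comparison with cells of 0 UMIs of Stmn2 and Elavl3, and a mean of per-cell CPM. The set also left out cells of 16000 UMIs or more, or the 4 neuron-like cells with any Lbx1 UMI or at least 3 Hox UMIs (a choice made after seeing the data). TMM factors gave 464 higher and 383 lower and a median over all genes of −0.14. With no CPM floor 527 genes were higher and 746 lower, and with a floor of 200 CPM 129 were higher and 52 lower, counts that move with the number of genes admitted. List medians moved too: with no CPM floor they were −2.56 for Hox, 0.79 for Notch, 4.33 for dorsal interneuron and 0.53 for neural crest genes. The medians of sensory neuron (8.08) and synapse genes (5.53) stayed close to those reported. After thinning to 2000 UMIs 161 genes were higher and 349 lower, of 2453 genes above the floor. The neuron-like cells of 129_E9.5 numbered 57 and 51 at limits of 2 and 5 UMIs, 45 after thinning, and 58 by a rule on Tubb3, Stmn2, Elavl3 and Nefm that held all 56. That rule gave 1 cell in B6_E9.5, against 0, and 1 in B6_E10.5, against 2, where a limit of 2 UMIs gave 3. The limb mesenchyme median log2 ratio turned to −0.22 with per-cell CPM, −0.54 without the CPM floor, −0.45 after thinning and −0.35 without the 4 cells. After thinning the medians of the neural crest list (−3.17) and the cell cycle exit list (−0.87) also turned. The thinned neural crest median equals the thinned log2 ratio of Ets1 (−3.17), the lower gene of that list. In the thinned neuron-like sum (55 cells of 2000 UMIs) the floor of 20 UMIs lay above 50 CPM. In the thinned sum of the 581 other cells it lay below 50 CPM. Genes higher in neuron-like cells thus faced a stricter floor after thinning. The part of this floor in the turned medians and in the counts of 161 and 349 was not tested. Among 44 named genes under 11 alternatives, the log2 ratio of Mki67, which passed no limit, changed sign after thinning (0.29 against −0.16 as reported), and 1 sign change was found in all. Ratios resting on few UMIs moved by more than 1.5 times at the limit of 5 UMIs and after thinning, where Neurog1 was at 6.15 and 6.62 and Ina at 7.91 and 7.57. A comparison with other cells of at least 2 UMIs of Sox2, Sox3 and Pax6 could not be run, as 0 such cells exist, so its complement is the reported comparison. No paired analysis was possible because each group is 1 library. With 400554 UMIs in the neuron-like sum, genes under about 50 CPM are weakly bounded.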

Other observations

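Metabolic and housekeeping genes were also set side by side for the neuron-like and the other cluster 2 cells of 129_E9.5. Beside the list counts below, 13.9% of all 3623 genes above the floor were higher and 9.38% were lower. Of 11 glycolysis and hypoxia genes above the floor 3 were higher and 0 lower (median log2 ratio 0.60): Gpi1 was at 637 against 239 CPM (2.67-fold, 2.32 to 3.06), Tpi1 at 859 against 428 CPM (2.01-fold, 1.78 to 2.25), and Bnip3, a mitochondrial protein induced by hypoxia, at a ratio of 8.41 (6.35 to 11.1). Of 13 housekeeping genes above the floor 1 was higher (Tfrc, the transferrin receptor) and 0 lower. Of 8 dissociation and heat stress genes 3 were lower (Junb, Egr1 and Ier2) and 0 higher. All 81 tested ribosomal protein genes stayed within the 2-fold limits, with a median log2 ratio of −0.36. Of 12 oncofetal and imprinted growth genes above the floor 5 were lower and 0 higher. Mest, an imprinted gene of embryonic mesoderm, was at 249.7 against 2345 CPM (9.39-fold lower, 7.72 to 11.6), and Hmga2, a chromatin protein of dividing embryonic cells, at 119.8 against 1077 CPM (8.99-fold lower, 6.77 to 12.2). Igf2bp1, Igf2bp3 and Peg3 of the same list did not reach 2-fold.

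Stmn2 alone does not mark neurons in these libraries. In the endothelial cluster 3, cells passed the limit of 3 UMIs of Stmn2 and Elavl3 in every library: 43 of 458 in 129_E9.5, 39 of 850 in B6_E9.5 and 79 of 707 in B6_E10.5. All of them had Stmn2, and the endothelial cadherin Cdh5 was found in 39, 39 and 74 of them, while Tubb3 was found in 3, 0 and 0. Tubb3 in turn occurred in ectoderm without the rule genes: 34 cells of the ectodermal cluster of B6_E9.5 had at least 5 Tubb3 UMIs and 0 of them passed the limit.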
